A study of Homo sapiens with 29 samples.

Results

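The comparison described here is that of 22Rv1 cells given CC-115 with the 22Rv1 Control cells, 5 of the 29 RNA-seq libraries of a study of DNA-PK inhibition in prostate cancer cell lines. The libraries were taken by their labels. The treated group holds 2 libraries of cells exposed to 1 µM CC-115 for 24 h, and the Control group holds 3 libraries of cells labelled as given no inhibitor, both from cells kept in hormone proficient medium. The study's other libraries are of the C4-2 line, and those of C4-2 cells given the same dose of CC-115 for the same time, with their Ctrl libraries, 3 of each, serve below to show where 22Rv1 differs. Total RNA was made into stranded libraries, and the deposited values are counts of reads per gene. The labels do not name the vehicle of the Control cells or say that the libraries of a group came from separate cultures, so the p-values measure the spread between these libraries, which may be technical.

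22Rv1 is an established line from a human prostate carcinoma xenograft that grew back after castration. CC-115 is a small molecule known to inhibit both the DNA-dependent protein kinase (DNA-PK) and the TOR kinase. DNA-PK is the kinase that, bound to DNA ends through the Ku proteins, acts in the repair of double-strand breaks by end joining. The TOR kinase, in its complexes with RAPTOR or RICTOR, promotes translation, ribosome production, amino acid and lipid synthesis and entry into the cell cycle, and it restrains autophagy, lysosome genes and, through AKT, the FOXO factors.

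The 5 libraries held between 31606952 and 44912917 counts each. The shallower ones, CC-115 library 2 with 31773580 and Control library 3 with 31606952 counts, stood apart from the other 3, which held at least 42469731, in a way shared by both groups: across 14593 genes, the difference of CC-115 library 1 from CC-115 library 2 and that of Control libraries 1 and 2 from Control library 3 had a Pearson's r of 0.80, a description over genes and not over independent samples. Both differences followed the GC content of the transcripts (Spearman's rho across 14277 genes of -0.81 and -0.74). The difference of CC-115 from Control itself also followed GC content, with a rho of 0.54 in all libraries, 0.47 among the deeper and 0.51 among the shallower ones, against 0.08 in C4-2. How far that relation is part of the response to CC-115 or of library making was not tested, so counts from a second fit, in which each library's trend on GC content was taken out, stand beside the lists below where they move a count by over 1.5 times. The noncoding RNA 7SK took 15.3% and 13.9% of the counts in the CC-115 libraries, against 9.30% to 10.2% in the Control libraries. All 14 prostate epithelial markers were measured, and their summed level was 2880 and 3150 CPM (counts scaled to the same library total, with TMM factors) with CC-115 and 2840 to 2930 CPM in Control. The 15 stromal, immune and endothelial markers with an identifier summed to 11.9 and 14.7 CPM with CC-115, against 5.44 to 6.71 CPM in Control. CD3E and KDR had no count in any of the 5 libraries, PTPRC in 4, CDH5 in 3 and LYZ in 1, and the collagen COL1A1 was the 1 of 6 measured markers of this kind that passed the test, at 6.07 and 12.1 CPM with CC-115 against 1.53, 2.33 and 3.43 CPM in Control. The part of such cells in the results was not tested. In these bulk samples, fewer cells making a transcript and less of it per cell cannot be told apart.

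CC-115 was followed by changes across a large part of the transcriptome. Of 19392 genes tested, 7925 were called (40.9%) by edgeR's quasi-likelihood test at a Benjamini-Hochberg adjusted p under 0.05, of which 3919 rose (20.2%) and 4006 fell (20.7%). The median log2 fold change was -0.02; TMM scaling centres the fold changes near 0, so the near balance of rises and falls is largely set by the scaling and says nothing of total RNA. Protein-coding genes took 66.1% and 68.2% of the counts with CC-115, against 74.1%, 76.0% and 74.7% in Control. By size, 1990 genes (10.3%) rose and 1797 (9.27%) fell by 2-fold or more. Both CC-115 libraries lay above all 3 Control libraries in 30.9% of the genes and below them in 31.5%. Groups that do not overlap are thus common, and genes named below for a large change would mostly have them. The number called rests on the replication at hand: it was 5035 without CC-115 library 2, 4902 without Control library 1 and 5129 without Control library 2, and 4183 genes (52.8% of the calls) were called in the same direction in each of the 5 fits that left out 1 library. Of all 19392 genes tested, 16428 (84.7%) had the same direction in the comparison among the deeper libraries (1 CC-115 against 2 Control) and in that among the shallower ones (1 against 1), whether called or not.

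**Figure D1:**
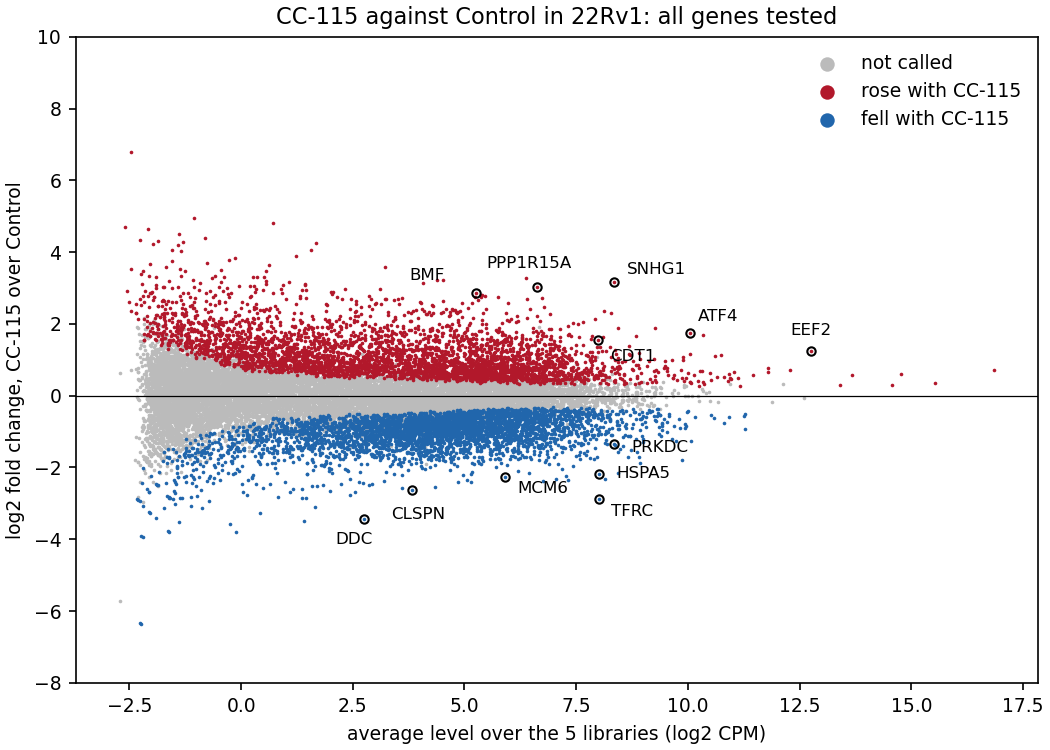
Average level of each gene over the 5 libraries (x axis, log2 CPM) against its log2 fold change, CC-115 over Control (y axis), with 3919 genes that rose in red, 4006 that fell in blue and the rest in grey. After TMM scaling, rises and falls spread about equally to both sides of 0, and 12 genes of the text are ringed.

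The genes of the kinases that CC-115 inhibits were themselves changed. PRKDC, for the catalytic protein of DNA-PK (chr8:48685669-48872743, hg19), had 177 and 164 CPM with CC-115, against 411, 420 and 468 CPM in Control, and fell by 1.34 ± 0.12 on the log2 scale (SE; adjusted p = 0.000261). The groups were well apart, and both CC-115 libraries lay far below the lowest Control library. MTOR, the gene of the TOR kinase (chr1:11166592-11322564, hg19), had 196 and 222 CPM with CC-115 and 147, 141 and 167 CPM in Control, a rise of 0.46 ± 0.13 (adjusted p = 0.0202). That call was lost without CC-115 library 2 (0.37), Control library 1 (0.44) or Control library 2 (0.40). ATR, another kinase of the same family that answers stalled forks, fell by 0.92 with a call that was also lost without any one of those libraries (-0.52, -0.91 and -0.77) and after the GC correction (-0.36, adjusted p = 0.0611 in edgeR). ATM, which answers double-strand breaks, stood at 22.4 and 13.8 CPM with CC-115 and 25.2, 26.0 and 15.9 CPM in Control and was not called. SMG1, the family's kinase in nonsense-mediated decay, rose by 0.88 ± 0.13. Over all genes tested, 20.2% rose and 20.7% fell, and the shares in the kinase list that follows are near or not far from these. Of the 11 measured PIKK kinases and their chaperones, 2 rose and 4 fell, with a median log2 fold change of -0.09; without those 3 libraries in turn, 1 rose and 2, 1 and 1 fell, and after the GC correction the median was -0.35, with 3 rises and 5 falls.

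End joining genes went in both directions. Of 17 measured, 5 rose and 6 fell, around a median of -0.09, where 20.2% of all genes rose and 20.7% fell. XRCC5, the larger Ku protein (chr2:216972187-217071026, hg19), had 199 and 144 CPM with CC-115, against 524, 476 and 444 CPM in Control, and fell by 1.49 ± 0.16 (adjusted p = 0.000499). Its partner XRCC6 had 533 and 518 CPM with CC-115 and 857, 818 and 789 CPM in Control, and fell by 0.64 ± 0.10 (adjusted p = 0.00185). So all 3 components of the DNA-PK holoenzyme were lower, with no overlap between the groups, as were 31.5% of all genes tested. PARP3, a break-binding ADP-ribosyl transferase, went the other way: it had 35.0 and 41.8 CPM with CC-115, against 6.50, 5.89 and 7.69 CPM in Control, a rise of 2.52 ± 0.18 (adjusted p = 0.000153). The gap-filling polymerases POLM (119 and 156 CPM with CC-115 against 28.6, 27.5 and 32.8 CPM in Control) and POLL (105 and 139 CPM against 26.1, 26.0 and 31.4 CPM) rose by 2.22 ± 0.16 and 2.13 ± 0.16. The ligase cofactor XRCC4 fell by 1.64, a call lost without CC-115 library 2 (-1.26), without which 3 members of the list rose.

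Genes of DNA replication fell almost throughout. The MCM helicase, the factors that load it onto origins and the polymerases and clamp of the fork are made ahead of and during S phase under the E2F factors. Of 44 measured members, 40 fell and 2 rose, with a median log2 fold change of -1.19, against -0.02 over all genes. CLSPN (claspin, which passes the signal from stalled forks to the checkpoint kinase) had 4.09 and 2.71 CPM with CC-115, against 20.2, 22.2 and 21.5 CPM in Control, and fell by 2.64 ± 0.23 (adjusted p = 0.000257). MCM10, which helps to start the helicase, had 10 and 9.58 CPM with CC-115 and 53.4, 50.7 and 52.3 CPM in Control, and fell by 2.41 ± 0.14. In both genes the treated libraries lay far below every Control library. The helicase subunit MCM6 (19.9 and 16.5 CPM with CC-115 against 88.4, 81.0 and 91.6 CPM), the sliding clamp PCNA (56.4 and 38.6 CPM against 248, 237 and 193 CPM) and the helicase loader CDC6 (31.5 and 25.6 CPM against 135, 120 and 123 CPM) fell by 2.26, 2.25 and 2.14. MCM2, another subunit of the helicase, had 241 and 275 CPM with CC-115, against 480, 463 and 511 CPM in Control, and fell by 0.91 ± 0.11, less than MCM6 in value.

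CDT1 was the exception. CDT1 loads the helicase onto origins together with CDC6 and is kept in check by geminin; its gene (chr16:88869621-88875666, hg19) had 369 and 469 CPM with CC-115, against 127, 139 and 163 CPM in Control, and rose by 1.55 ± 0.15 (adjusted p = 0.000343). Both treated libraries lay far above the highest Control library, while GMNN, the gene of geminin, fell by 1.66 ± 0.17. The other riser, the polymerase subunit POLE (0.44), lost its call without CC-115 library 2 (0.22), Control library 1 (0.38) or Control library 2 (0.42) and after the GC correction (0.17), which left 1 riser and 40 fallers in the list.

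The promoters of CLSPN, MCM6 and CDC6, among the largest falls, and of CDT1, which rose, are shown because each carries an E2F element, in capitals, within the 300 bases from 250 before to 50 after the start (RefSeq, GRCh38.p14, printed 5′ to 3′ on the gene's strand).
CLSPN, chr1:35769929-35770228, minus strand: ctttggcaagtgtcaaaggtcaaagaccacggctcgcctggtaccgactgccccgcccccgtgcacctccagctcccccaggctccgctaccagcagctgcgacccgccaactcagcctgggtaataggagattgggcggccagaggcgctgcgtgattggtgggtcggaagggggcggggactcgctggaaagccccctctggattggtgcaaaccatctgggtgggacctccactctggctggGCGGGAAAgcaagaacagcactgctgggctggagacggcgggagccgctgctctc
MCM6, chr2:135876394-135876693, minus strand: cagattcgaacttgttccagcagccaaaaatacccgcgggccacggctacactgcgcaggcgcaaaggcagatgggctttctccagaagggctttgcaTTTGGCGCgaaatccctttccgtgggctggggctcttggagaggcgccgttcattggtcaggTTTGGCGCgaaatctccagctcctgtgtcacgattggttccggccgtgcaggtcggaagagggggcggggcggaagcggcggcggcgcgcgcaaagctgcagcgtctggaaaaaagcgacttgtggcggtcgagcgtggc
CDC6, chr17:40287629-40287928, plus strand: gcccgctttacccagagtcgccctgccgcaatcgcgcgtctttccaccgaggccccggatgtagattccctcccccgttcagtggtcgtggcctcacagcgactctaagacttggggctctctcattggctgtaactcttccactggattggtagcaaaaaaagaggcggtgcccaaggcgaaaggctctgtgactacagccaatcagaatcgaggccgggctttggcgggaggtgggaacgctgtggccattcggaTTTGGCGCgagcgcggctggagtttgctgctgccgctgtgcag
CDT1, chr16:88803539-88803838, plus strand: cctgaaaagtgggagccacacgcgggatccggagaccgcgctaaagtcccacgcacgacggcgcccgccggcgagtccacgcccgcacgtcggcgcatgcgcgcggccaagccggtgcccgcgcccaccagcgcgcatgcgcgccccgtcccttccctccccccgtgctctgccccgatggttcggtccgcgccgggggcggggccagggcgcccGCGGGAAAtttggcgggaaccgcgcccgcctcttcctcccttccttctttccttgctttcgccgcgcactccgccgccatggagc
The element was searched as TTTCCCGC or TTTGGCGC on both strands. It was found in 19 of the 38 measured members with a promoter in the RefSeq table, against 750 of the 27305 genes of that table (2.75%) and 533 of 12411 genes tested in 22Rv1 (4.29%). Among the members that fell it was in 17 of 34, and both members that rose had it, so its presence did not separate CDT1 from the genes that fell. A match describes the letters of the window, not binding.

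Enzymes that supply nucleotides fell with the replication genes. Of 20 measured, 14 fell and 3 rose, with a median of -1.05. RRM2, the regulated subunit of ribonucleotide reductase, had 56.3 and 44.1 CPM with CC-115 and 226, 207 and 193 CPM in Control, and fell by 2.05 ± 0.15 (adjusted p = 0.00017). TYMS, thymidylate synthase, fell by 1.39 ± 0.15. The risers were IMPDH2 (0.76) and ADSL (0.58) of purine synthesis and CAD (0.60) of pyrimidine synthesis; the call of CAD was lost without CC-115 library 2 (0.38), Control library 1 (0.50) or Control library 2 (0.57).

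The E2F factors and the cyclins that act before S phase fell too, with less uniformity. Of 25 measured, 14 fell and 3 rose, with a median of -0.84; the GC correction gave 18 and 4. E2F8 had 2.10 and 1.73 CPM with CC-115, against 9.61, 10.2 and 12.4 CPM in Control, and fell by 2.48 ± 0.22. SKP2, which marks the CDK inhibitor p27 for destruction, fell by 1.77, and E2F2, CCNE2, CDK2 and E2F7 by 1.63, 1.47, 1.43 and 1.29. E2F1 had 76.2 and 97.8 CPM with CC-115 and 153, 167 and 179 CPM in Control, a fall of 0.94 ± 0.15 (adjusted p = 0.00231). Cyclin D1 was not called: CCND1 had 1510 and 1500 CPM with CC-115, against 1720, 1570 and 1860 CPM in Control (log2 fold change -0.19 ± 0.10, adjusted p = 0.180). CDKN1A, the gene of p21, fell by 0.73 ± 0.13, while CDKN1B, the gene of p27, rose by 0.57 with a call lost without Control library 1 (0.59), without which no member rose.

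Mitotic genes fell without a riser, though 1 rose with the depth class of the libraries as a term. They are expressed in G2 and M under the DREAM and FOXM1 complexes, and their promoters often hold CHR and CCAAT elements. Of 30 measured, 24 fell, with a median of -0.96. MAD2L1, of the spindle checkpoint, had 13.8 and 6.73 CPM with CC-115, against 45.0, 48.9 and 26.4 CPM in Control, and fell by 1.96 ± 0.36. CCNA2 (26.7 and 18.5 CPM with CC-115 against 83.5, 88.1 and 61.1 CPM) and CDK1 (11.7 and 6.14 CPM against 30.8, 35.8 and 18.2 CPM) fell by 1.78 ± 0.22 and 1.66 ± 0.36. In these genes the shallower library of each group was the lowest, and the groups still did not overlap. The proliferation marker MKI67 fell by 1.53 ± 0.20 and the regulator FOXM1 by 0.87 ± 0.16. The CHR letters TTTGAA were in 16 of 24 promoters of the list (66.7%), in 2 of 38 of the replication list (5.26%) and in 13.7% of tested genes. CCAAT was in 21 of 24 (87.5%) and in 23 of 38 of the replication list (60.5%), against 42.5% of tested genes. Both were searched on both strands, and TTTGAA shares the letters TTTG with one of the E2F spellings.

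Replication-dependent histone genes, whose transcripts end in a stem loop and not in a poly(A) tail and are caught in total RNA libraries, fell in 10 of 13 measured cases, with none rising and a median of -0.67. The linker histone H1-5 had 602 and 569 CPM with CC-115, against 1420, 1490 and 1320 CPM in Control, and fell by 1.27 ± 0.10 (adjusted p = 0.000215). The core histones H2BC4 and H2BC5 fell by 1.13 and 1.11. SLBP, which is no histone but binds the stem loop and is the 1 other measured member of the list, fell by 1.17. Histone genes are near-identical copies of each other, so reads may be shared between them and the values of single core histone genes are uncertain. After the GC correction 9 histone genes fell and 1 rose, with a median of -0.90.

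Homologous recombination and Fanconi genes mostly fell, 19 of 25 measured, and 2 rose, with a median of -1.16 that was -0.74 after the GC correction. The helicase BLM had 4.41 and 2.32 CPM with CC-115, against 15.7, 18.0 and 12.5 CPM in Control, and fell by 2.18 ± 0.31. BRCA1 (17.0 and 10.9 CPM with CC-115 against 40.4, 48.4 and 39.1 CPM) fell by 1.61 ± 0.22, RBBP8, which starts the resection of broken ends, by 1.73, and the nuclease EXO1 by 1.70. The groups did not overlap in any of these genes, where 31.5% of all genes were lower without overlap. Without CC-115 library 2, 12 members fell. The risers were FANCG (0.95) and RAD51D (0.61), of which RAD51D lost its call without CC-115 library 2 (0.51), Control library 1 (0.56) or Control library 2 (0.59). The E2F element was in 4 of 22 promoters of this list (18.2%).

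**Figure D2:**
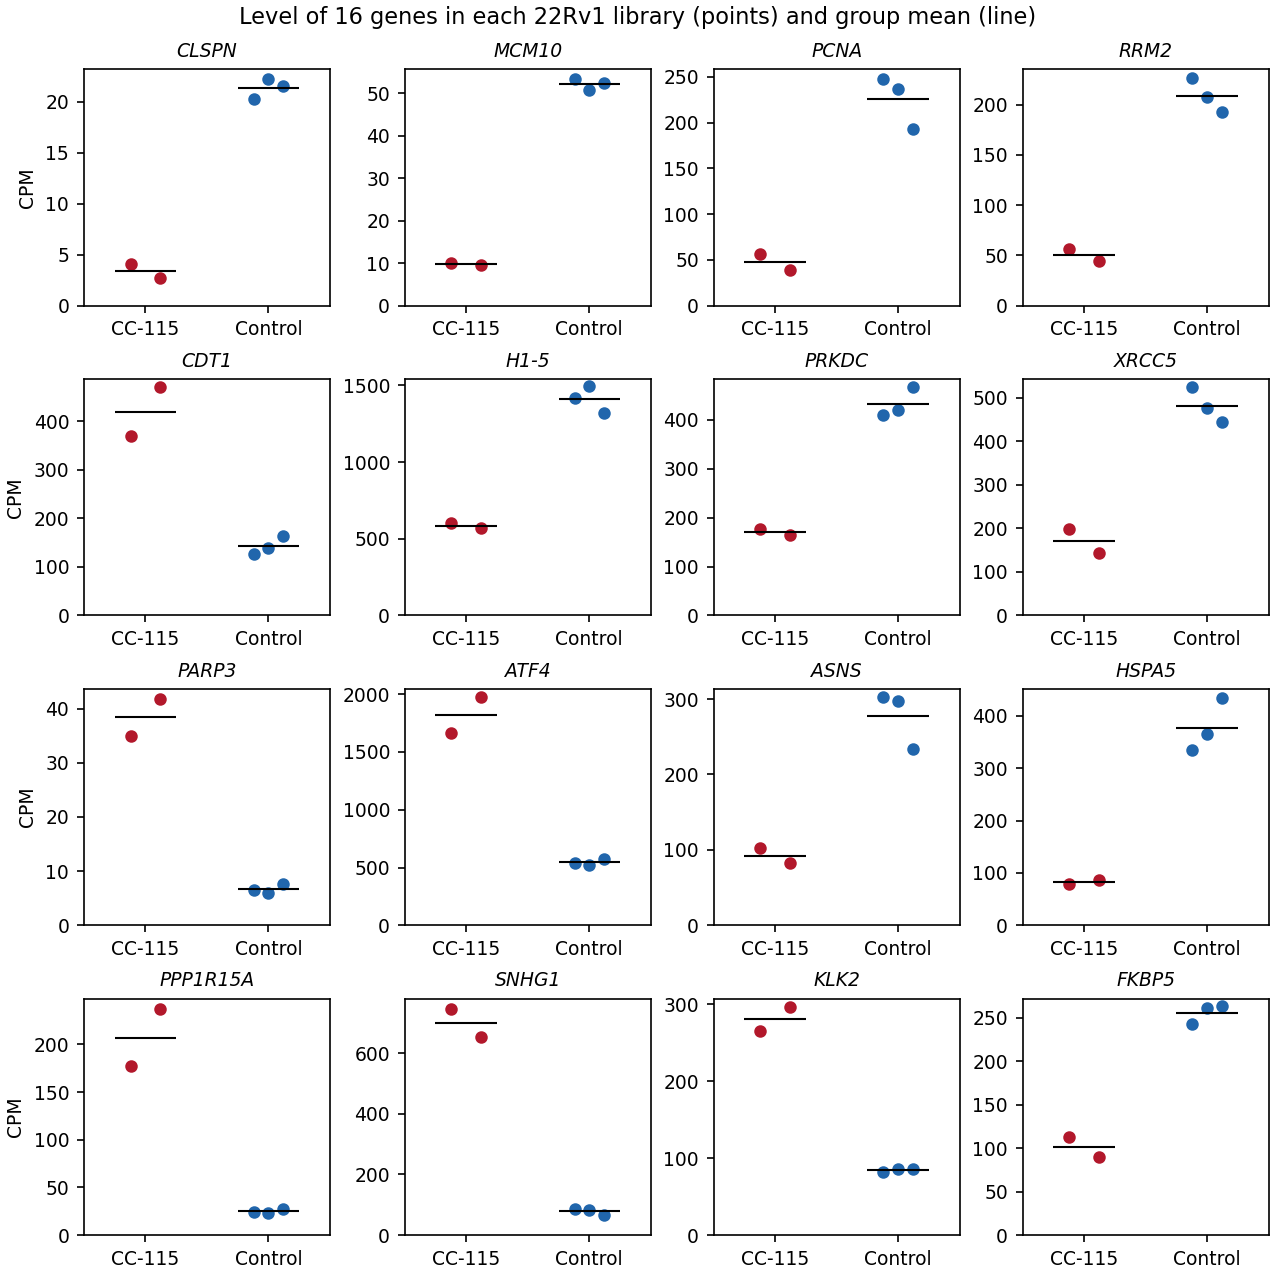
CPM in each 22Rv1 library (points; y axis from 0) for 16 genes, CC-115 at the left in red and Control at the right in blue, with a line at each group's mean. In each panel the 2 CC-115 libraries lie on 1 side of the 3 Control libraries: below them for genes such as CLSPN and HSPA5, above them for genes such as CDT1 and SNHG1.

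Among regulators of the TOR complexes the directions were mixed. Of 35 measured, 7 rose and 7 fell, with a median of -0.15, shares close to those of all genes (20.2% and 20.7%). After the GC correction 11 rose and 11 fell. TSC2, the brake on the small GTPase RHEB, had 157 and 215 CPM with CC-115, against 71.6, 74.8 and 86.6 CPM in Control, and rose by 1.26 ± 0.16 (adjusted p = 0.000927). RHEB itself, which switches the kinase on, fell by 0.76 ± 0.17. The translation repressors that the kinase inactivates both fell, EIF4EBP1 (55.6 and 69.2 CPM with CC-115 against 107, 110 and 123 CPM) by 0.86 ± 0.14 and EIF4EBP2 by 1.09 ± 0.12. LAMTOR5, of the lysosomal docking complex, fell by 0.88, and FLCN, which acts on the Rag GTPases, rose by 0.88. RICTOR had 10.7 and 5.72 CPM with CC-115 and 10.4, 13.6 and 6.96 CPM in Control, and DEPTOR 8.06 and 5.93 CPM against 10.4, 9.48 and 8.06 CPM; neither was called. The number of risers was 3 without CC-115 library 2, 3 without Control library 1 and 4 without Control library 2.

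FOXO targets and receptors held back by TOR signalling rose more often than they fell. Of 20 measured, 10 rose and 3 fell, with a median of 0.46. FBXO32, a ubiquitin ligase of the atrophy programme, had 7.21 and 7.49 CPM with CC-115, against 1.86, 2.04 and 2.33 CPM in Control, and rose by 1.83 ± 0.19. KLHL24 had 43.7 and 29.3 CPM with CC-115 and 10.7, 13.1 and 7.23 CPM in Control, a rise of 1.82 ± 0.27. PIK3IP1, an inhibitor of PI3 kinase, rose by 1.58 ± 0.16, and the receptor ERBB2 (198 and 265 CPM with CC-115 against 73.4, 76.2 and 91.4 CPM) by 1.53 ± 0.16. The adaptor IRS2, which links the insulin receptor to PI3 kinase, had 93.2 and 114 CPM with CC-115, against 36.2, 42.2 and 53.3 CPM in Control, and rose by 1.24 ± 0.18 (adjusted p = 0.00159). SESN3 and SOD2 fell by 1.27 and 1.20. The receptors INSR (0.36 ± 0.14) and ERBB3 (-0.31 ± 0.12) were not called. The letters GTAAACA of the FOXO element were in 3 of 17 promoters of the list (17.6%), against 3.53% of tested genes. Of 16 measured genes that report feedback in the MAPK pathway, 5 rose and 1 fell, where 20.2% of all genes rose and 20.7% fell. Their median was 0.12. The phosphatase DUSP4 rose by 1.25 ± 0.13 and FOS by 1.01 ± 0.19. The kinase MAP2K6 fell by 1.56 ± 0.20, and DUSP6 (0.38 ± 0.19) was not called. The faller count was 2 without CC-115 library 1 and 2 after the GC correction.

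The ATF4 transcript rose, and the members of its list went both ways, more of them down than up. ATF4 is the transcription factor of the amino acid response, made from its mRNA when initiation is slowed and also under the TOR kinase, and it induces amino acid transporters, synthetases of serine and asparagine and the regulators of its own shut-off. The ATF4 transcript (chr22:39915700-39918691, hg19) had 1670 and 1970 CPM with CC-115, against 535, 525 and 576 CPM in Control, and rose by 1.74 ± 0.11 (adjusted p = 0.000129). DDIT3, the gene of its partner CHOP, rose by 1.47 ± 0.15. ATF3 and SLC3A2 rose too, with calls lost without Control library 1 (0.50 and 0.52) or Control library 2 (0.48 and 0.50). Over all genes tested, 20.2% rose and 20.7% fell. Of the 28 measured members of the list, 14 fell and 5 rose, with a median of -0.51; 3 rose without CC-115 library 2, Control library 1 or Control library 2. CHAC1, which degrades glutathione, had 1.85 and 2.19 CPM with CC-115, against 11.1, 11.2 and 11.1 CPM in Control, and fell by 2.47 ± 0.19 (adjusted p = 0.0002). PSAT1, of serine synthesis, had 34.5 and 27.4 CPM with CC-115 and 158, 175 and 147 CPM in Control, and fell by 2.37 ± 0.16. The amino acid transporter SLC7A5 (35.5 and 46.6 CPM with CC-115 against 131, 136 and 162 CPM), the TOR inhibitor DDIT4 (6.63 and 9.30 CPM against 25.9, 24.9 and 27.4 CPM) and asparagine synthetase, ASNS (102 and 82.6 CPM against 302, 297 and 233 CPM), fell by 1.80, 1.72 and 1.59. All of these had groups that did not overlap, as did 30.9% of all genes with CC-115 higher and 31.5% with CC-115 lower.

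The promoters of CHAC1 and ASNS are shown because they hold the composite element that ATF4 and CEBP factors bind (CARE), in capitals, while their transcripts fell as ATF4 rose (RefSeq, GRCh38.p14, 5′ to 3′ on the gene's strand; for ASNS, the 1 of its 2 listed promoters with a match).
CHAC1, chr15:40953221-40953520, plus strand: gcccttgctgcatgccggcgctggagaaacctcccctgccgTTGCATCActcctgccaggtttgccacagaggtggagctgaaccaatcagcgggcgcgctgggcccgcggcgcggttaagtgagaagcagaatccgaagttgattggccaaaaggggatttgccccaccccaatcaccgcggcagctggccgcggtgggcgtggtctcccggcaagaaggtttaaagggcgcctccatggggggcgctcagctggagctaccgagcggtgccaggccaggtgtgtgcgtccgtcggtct
ASNS, chr7:97872359-97872658, minus strand: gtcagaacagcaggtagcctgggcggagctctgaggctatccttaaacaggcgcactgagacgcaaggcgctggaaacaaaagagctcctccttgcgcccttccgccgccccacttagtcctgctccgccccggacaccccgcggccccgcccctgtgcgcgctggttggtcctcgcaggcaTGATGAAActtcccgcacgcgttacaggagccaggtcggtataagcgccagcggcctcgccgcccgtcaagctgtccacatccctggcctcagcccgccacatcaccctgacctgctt
The element was searched as TGATGNAA on both strands. It was in 6 of 22 promoters of the list (27.3%), against 4.46% of all genes of the table and 2.84% of tested genes. It was in 3 of 11 members that fell and 2 of 4 that rose.

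Of 20 measured cytosolic tRNA synthetases, several of which ATF4 induces, 11 fell and 2 rose, with a median of -0.52. EPRS1, for glutamate and proline, fell by 1.53 ± 0.15. NARS1, for asparagine, had 60.6 and 42.5 CPM with CC-115, against 136, 145 and 128 CPM in Control, with no overlap. NARS1, GARS1, TARS1 and IARS1 fell by 1.40, 1.32, 1.23 and 1.16. QARS1 (0.81) and SARS1 (0.77) rose.

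Genes of the unfolded protein response and heat shock, chaperones of the endoplasmic reticulum and the cytosol among them, fell nearly without exception. Of 19 measured, 17 fell and none rose, with a median of -1.12. HSPA5, the chaperone BiP (chr9:127997132-128003609, hg19), had 79.8 and 86.7 CPM with CC-115, against 335, 365 and 434 CPM in Control, and fell by 2.18 ± 0.15 (adjusted p = 0.000141). The cytosolic chaperone HSP90AA1 (69.4 and 56.6 CPM with CC-115 against 209, 279 and 247 CPM) fell by 1.96 ± 0.17, and its counterpart in the endoplasmic reticulum, HSP90B1 (221 and 151 CPM against 687, 768 and 605 CPM), by 1.88 ± 0.19. SDF2L1, DNAJA1 and PDIA4, a cochaperone of each compartment and a disulfide isomerase, fell by 1.77, 1.71 and 1.70. The groups did not overlap in any of the 6 genes, where 31.5% of all genes were lower without overlap. The GC correction gave 16 falls. PPP1R15A (GADD34), the phosphatase subunit that reverses the translation arrest of the stress response, was one of the largest rises of any gene: it had 177 and 237 CPM with CC-115, against 24.7, 23.6 and 27.6 CPM in Control, a rise of 3.03 ± 0.16 (adjusted p = 0.000112).

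Sterol synthesis genes, the targets of SREBP factors, mostly fell, where 20.2% of all genes rose and 20.7% fell. Of 25 measured, 14 fell and 4 rose, with a median of -0.77. HMGCS1, at the start of the pathway, had 39.7 and 27.5 CPM with CC-115 and 114, 113 and 105 CPM in Control, and fell by 1.72 ± 0.18. MSMO1, IDI1 and EBP fell by 1.70, 1.65 and 1.41. INSIG1, which retains SREBP, had 117 and 94.9 CPM with CC-115, against 210, 197 and 180 CPM in Control, and fell by 0.89 ± 0.14. The number of risers was 2 without CC-115 library 2, Control library 1 or Control library 2. The sterol element TCACNCCAC was in 1 of 19 promoters (5.26%), against 1.51% of tested genes. It was in 0 of 10 fallers and 1 of 4 risers with a promoter. Of 14 measured fatty acid synthesis genes, 7 fell and 1 rose, with a median of -0.48; 3 fell and none rose without CC-115 library 2, 4 fell without Control library 2, and 2 rose after the GC correction. The elongases ELOVL7 and ELOVL6 fell by 1.45 and 1.33, of which ELOVL7 lost its call without CC-115 library 2 (-0.89), Control library 1 (-1.37) or Control library 2 (-1.29). FASN, fatty acid synthase, had 1980 and 3120 CPM with CC-115, against 885, 1070 and 1560 CPM in Control, and rose by 1.12 ± 0.25, a call lost without CC-115 library 2 (0.76). SREBF1 (-0.34 ± 0.17) and the desaturase SCD (-0.01 ± 0.10) were not called. Of 12 measured genes of cholesterol export and the LXR receptors, 5 rose and none fell, with a median of 0.33, 2 rose without CC-115 library 2, and 1 fell without CC-115 library 1 and after the GC correction. ABCA1, the exporter, rose by 1.47 ± 0.40 from low levels, and lost its call without CC-115 library 1 (1.38), CC-115 library 2 (1.54), Control library 1 (1.15) or Control library 2 (1.39).

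Genes of energy metabolism fell more often than they rose, where 20.2% of all genes rose and 20.7% fell. Of 24 measured genes of glycolysis and the hypoxia response, 9 fell and 2 rose, with a median of -0.15, and no riser was left without CC-115 library 2, Control library 1 or Control library 2. The risers were 3 without CC-115 library 1, 7 with the depth class of the libraries as a term and 5 in the fit together with C4-2. LDHA, lactate dehydrogenase, had 177 and 139 CPM with CC-115, against 493, 483 and 433 CPM in Control, and fell by 1.57 ± 0.14. PGAM1 and the hexokinase HK2 fell by 1.34 and 1.20, and VEGFA (75.6 and 89.5 CPM with CC-115 against 75.5, 73.8 and 81.5 CPM) was not called. Of 28 nuclear genes of oxidative phosphorylation, 19 fell and none rose, with a median of -0.59. Cytochrome c, CYCS, had 59.9 and 33.1 CPM with CC-115, against 269, 279 and 160 CPM in Control, and fell by 2.34 ± 0.32 (adjusted p = 0.00128). SDHD, of complex II, and COX7B, of complex IV, fell by 1.70 ± 0.38 and 1.47 ± 0.15. The shallower library was the lowest of its group in CYCS, and the groups did not overlap. In the list 1 member rose without CC-115 library 1 or Control library 3.

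Lysosome and autophagy genes, targets of the TFEB and TFE3 factors that TOR keeps out of the nucleus, rose in 13 of 28 measured cases and fell in 3, with a median of 0.34. GABARAPL1, which coats autophagosomes, had 25.7 and 25.3 CPM with CC-115, against 6.14, 6.27 and 5.58 CPM in Control, and rose by 2.09 ± 0.16 (adjusted p = 0.000172). SQSTM1 (p62), the autophagy receptor, had 228 and 308 CPM with CC-115 and 113, 111 and 132 CPM in Control, a rise of 1.17 ± 0.16. The hydrolases CTSD, HEXA and GAA rose by 1.09, 1.04 and 1.01. ULK1, the kinase that starts autophagy, rose by 0.79, a call lost without CC-115 library 2 (0.53) or Control library 1 (0.69), and TFEB itself was not called (0.05 ± 0.20). The risers numbered 8 without Control library 1; 5 members fell without CC-115 library 1 and after the GC correction, and 1 without CC-115 library 2 or Control library 1. The CLEAR element TCACGTG was in 8 of 21 promoters (38.1%), against 6.95% of tested genes. It was in 5 of 11 risers and in neither of the 2 fallers with a promoter. The other matches were in members that were not called, and 2 fallers are too few for a comparison by direction.

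Host genes of small nucleolar RNAs rose as a body: 16 of 17 measured, with none falling and a median of 1.41. Their introns carry the snoRNAs. Their spliced transcripts begin with the pyrimidine tract of genes whose translation follows TOR, and are broken down by nonsense-mediated decay once translated. SNHG1 (chr11:62619460-62623386, hg19) had 745 and 653 CPM with CC-115, against 87.7, 81.5 and 64.9 CPM in Control, and rose by 3.16 ± 0.15 (adjusted p = 0.000112). EPB41L4A-AS1 had 169 and 193 CPM with CC-115 and 20.9, 17.4 and 17.6 CPM in Control, a rise of 3.28 ± 0.14; it lies antisense to a coding gene, and with the strand setting of the counting not given in the sources used here, reads of the pair cannot be told apart. ZFAS1 (213 and 220 CPM with CC-115 against 41.7, 37.8 and 36.9 CPM), SNHG7, SNHG12 and SNHG32 rose by 2.48, 2.36, 2.29 and 2.15. GAS5 had 731 and 815 CPM with CC-115, against 268, 240 and 220 CPM in Control, and rose by 1.67 ± 0.12. The treated libraries lay far above every Control library in each of these genes. The GC correction gave 17 rises. Over all genes tested, 20.2% rose and 20.7% fell. Of 13 measured factors of nonsense-mediated decay, 7 rose and 4 fell, with a median of 0.41: the nuclease SMG6 rose by 1.23 and SMG5 by 1.14, and MAGOH fell by 0.98; 2 fell without CC-115 library 2, Control library 1 or Control library 2.

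The translation machinery moved in parts, where 20.2% of all genes rose and 20.7% fell. Of 34 measured ribosomal protein genes, 19 rose and 1 fell, with a median of 0.37. RPS9 had 1230 and 1540 CPM with CC-115, against 627, 629 and 713 CPM in Control, and rose by 1.08 ± 0.12, RPL28 by 0.97 ± 0.18 and RPLP0 by 0.71 ± 0.09. RPS27L, a p53-responsive paralog, fell by 1.03 ± 0.18, and RPS6, whose protein is the classic substrate of the pathway, had 1150 and 1120 CPM with CC-115 and 1370, 1160 and 1240 CPM in Control and was not called. Ribosomal protein genes have many processed pseudogenes, so their reads may be split; 3 fell without CC-115 library 1. Of 23 measured translation factors, 7 rose and 8 fell, with a median of -0.06. The cap-binding protein EIF4E had 10.8 and 5.17 CPM with CC-115, against 26.6, 28.2 and 18.0 CPM in Control, and fell by 1.60 ± 0.34. The elongation factor EEF2 had 9460 and 11800 CPM with CC-115 and 4270, 4380 and 4870 CPM in Control, a rise of 1.24 ± 0.11 (adjusted p = 0.000286). EIF5B and EIF2S1 fell by 1.59 and 1.49, and EIF4A2 and EIF1 rose by 1.58 and 1.35; 4 factors rose without Control library 1 or Control library 2. Of 27 measured genes of ribosome biogenesis and MYC, 11 fell and 2 rose, with a median of -0.28. The nucleolar proteins NOLC1 and NCL (166 and 131 CPM with CC-115 against 360, 370 and 382 CPM) fell by 1.5 ± 0.14 and 1.32 ± 0.13, the MYC antagonist MXD4 rose by 1.21 ± 0.14, and MYC had 283 and 301 CPM with CC-115 against 225, 224 and 257 CPM in Control (0.31 ± 0.11, adjusted p = 0.0596) and was not called. In that list 7 fell without Control library 2, 1 rose without CC-115 library 2, and 17 fell after the GC correction.

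Prostate lineage factors and androgen response genes were called about as often as all genes. FOXA1 (0.14 ± 0.11), HOXB13 (0.25 ± 0.13) and NR3C1, the glucocorticoid receptor (0.49 ± 0.18), were not called. Of 16 measured genes of the lineage and steroid pathway list, 1 rose and 5 fell, with a median of -0.12: the steroid reductase SRD5A1 rose by 0.85 ± 0.14 and SRD5A3 fell by 0.72 ± 0.16. The coactivator NCOA3 also fell, by 0.72, and lost its call without CC-115 library 2 (-0.54) or Control library 1 (-0.70). The fallers numbered 1 without CC-115 library 2 and 2 without any one of the Control libraries, and 2 rose without CC-115 library 1 or Control library 3 and after the GC correction. With the depth class of the libraries as a term, 5 rose and 5 fell.

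Of 28 measured androgen response genes, 5 rose and 7 fell, with a median of -0.18, which is near the shares over all genes (20.2% and 20.7%). With the depth class as a term 7 rose and 12 fell, and under a stricter filter on low counts, which left 23 members, the median was 0.05. KLK2 (chr19:51364824-51383823, hg19), a prostate kallikrein, had 265 and 296 CPM with CC-115, against 82.3, 86.3 and 86.0 CPM in Control, and rose by 1.73 ± 0.11 (adjusted p = 0.000129). Its neighbour KLK3, the gene of PSA, had 44.4 and 47.8 CPM with CC-115 and 37.4, 39.4 and 36.6 CPM in Control, and was not called (0.28 ± 0.13, adjusted p = 0.107), though its groups did not overlap. FKBP5, a cochaperone of steroid receptors, had 113 and 90.4 CPM with CC-115 and 243, 261 and 263 CPM in Control, and fell by 1.33 ± 0.14. STEAP2 fell by 1.22 and the lineage factor SPDEF rose by 1.04. TMPRSS2 rose by 0.44, a call lost without CC-115 library 2 (0.35), Control library 1 (0.45), Control library 2 (0.41) or Control library 3 (0.45). The risers of the list numbered 2 without CC-115 library 2, Control library 1 or Control library 2. Of 11 measured androgen-repressed and glucuronidation genes, 4 fell and none rose, with a median of -0.78; DDC, the decarboxylase that makes dopamine, had 1.09 and 0.833 CPM with CC-115, against 10.5, 9.11 and 12 CPM in Control, and fell by 3.43 ± 0.25. After the GC correction 3 fell and 2 rose in that list, with a median of -0.16.

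Genes of the BCL2 family and apoptosis changed in both directions, on both the killer and the survival side. Of 20 measured, 7 rose and 8 fell, with a median of 0.08, where 20.2% of all genes rose and 20.7% fell. BMF, a BH3-only killer protein, had 67.2 and 90.5 CPM with CC-115, against 10, 10.1 and 12.3 CPM in Control, and rose by 2.87 ± 0.18 (adjusted p = 0.000129). BBC3 (PUMA; 79.2 and 106 CPM with CC-115 against 34.0, 34.3 and 47.8 CPM) rose by 1.26 ± 0.19. The survival proteins BCL2 (3.03 and 2.19 CPM with CC-115 against 5.88, 5.49 and 5.36 CPM) and MCL1 (118 and 91.9 CPM against 226, 214 and 189 CPM) fell by 1.09 ± 0.21 and 1.00 ± 0.15. PMAIP1 (NOXA) fell by 1.45. The list's risers numbered 3 without CC-115 library 2, Control library 1 or Control library 2, and its fallers 4, 5 and 5. Of 24 measured p53 targets, 5 rose and 8 fell, with a median of -0.30. TIGAR, a fructose bisphosphatase, had 0.762 and 0.278 CPM with CC-115, against 5.35, 4.81 and 4.08 CPM in Control, and fell by 3.11 ± 0.36, while GDF15 (337 and 447 CPM with CC-115 against 121, 122 and 131 CPM) rose by 1.65 ± 0.14. MDM2 fell by 0.89, a call lost without CC-115 library 2 (-0.70). The counts were 3 and 3 without CC-115 library 2, 3 and 5 without Control library 1, and 3 rises without Control library 2 and after the GC correction.

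In the other lists genes were called in both directions, where 20.2% of all genes rose and 20.7% fell. Some of the counts below are near those shares. Of 22 measured epithelial and mesenchymal genes, 6 rose and 3 fell, with a median of 0.19. CCN2, a YAP target secreted into the matrix, had 18.2 and 19.9 CPM with CC-115, against 3.20, 2.73 and 2.91 CPM in Control, and rose by 2.69 ± 0.17 (adjusted p = 0.000129), and fibronectin, FN1, rose by 2.32 ± 0.15. CDH1, E-cadherin, fell by 0.46, a call lost without Control library 1 (-0.46) or Control library 2 (-0.47), and VIM (0.53 ± 0.20) was not called. Without Control library 1 the counts were 3 and 1, without Control library 2 the fallers were 1, and after the GC correction 7. Of 17 measured interferon response genes, 4 rose and 5 fell, with a median of 0.03: OAS3 fell by 2.08, and IRF7 and MX1 rose by 1.72 and 1.38. The fallers were 3 without CC-115 library 1, CC-115 library 2 or Control library 2. Of 17 measured Wnt signalling genes, 2 rose and 6 fell, with a median of -0.19; CTNNB1, beta-catenin, fell by 1.02 ± 0.12, and AXIN2, the usual reporter of the pathway, was not called (-0.32 ± 0.24). The Wnt fallers were 3 without CC-115 library 2, Control library 1 or Control library 2, and the risers 1 without CC-115 library 2. Of 12 measured neuroendocrine genes, 2 rose and 4 fell, with a median of -0.15: SCG2 rose by 1.94, SCG3 fell by 1.54 and EZH2 by 0.90, and 1 rose without CC-115 library 2, Control library 1 or Control library 2. Among the 14 prostate epithelial markers 5 rose and 4 fell. FOLH1, the gene of PSMA, rose by 0.44 with a call lost without CC-115 library 1 (0.27), Control library 1 (0.46), Control library 2 (0.47) or Control library 3 (0.41). The risers numbered 3 without CC-115 library 2 or Control library 3 and 2 without Control library 1 or Control library 2.

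**Figure D3:**
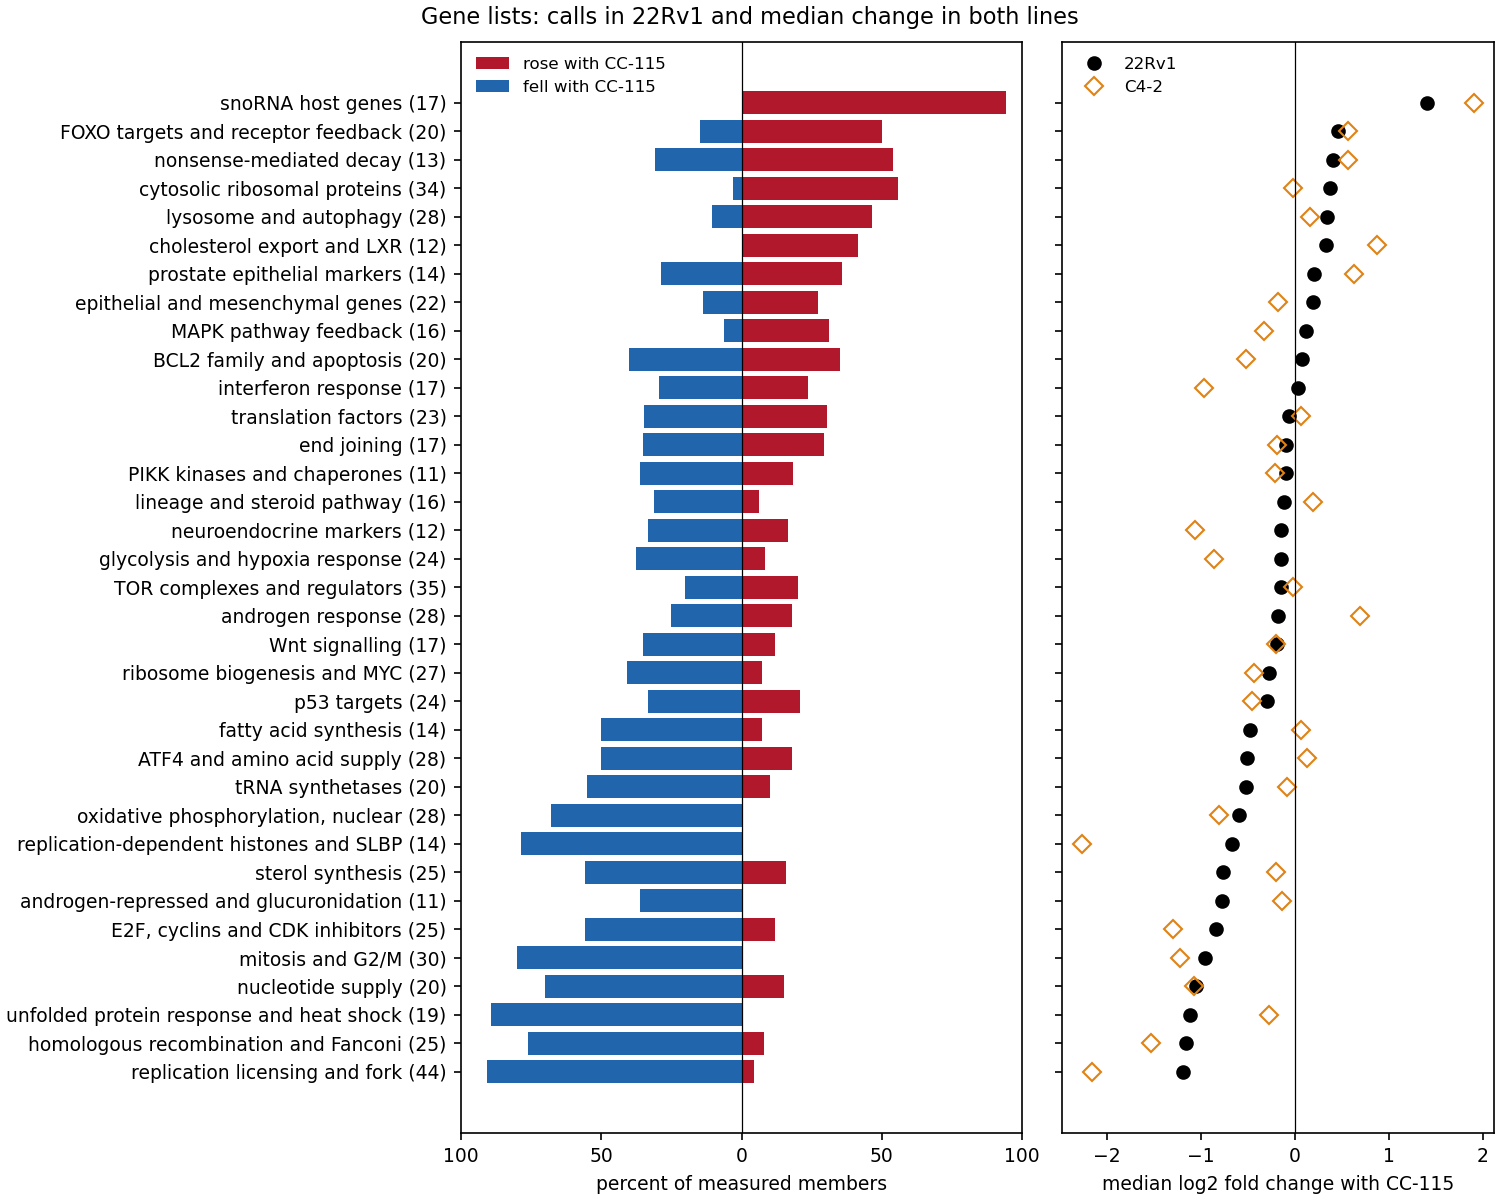
Left, percent of the measured members of each gene list (number in parentheses) that rose, to the right in red, or fell, to the left in blue, with CC-115 in 22Rv1. Right, the list's median log2 fold change with CC-115 in 22Rv1 (filled circles) and in C4-2 (open diamonds). The replication list is at the bottom, with a median of -1.19 in 22Rv1 and -2.16 in C4-2, and the snoRNA host genes at the top, with 1.41 and 1.91.

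Among all genes, the largest rises and falls among called protein-coding genes of moderate level were these. ADAMTSL2, a matrix protein, had 5.38 and 8.26 CPM with CC-115, against 0.442, 0.487 and 0.245 CPM in Control, and rose by 4.07 ± 0.31. PCSK4 (16.8 and 24.6 CPM with CC-115 against 1.53, 1.29 and 2.42 CPM), a proprotein convertase, rose by 3.58 ± 0.30. Next came WASHC1 (3.21), of which near-identical copies exist at several chromosome ends so that its counts are uncertain, the tropomyosin TPM2 (3.17), TTC16 (3.09), PPP1R15A and YPEL1 (2.96). BMF, CLDN15 (2.80), TCP11L2 (2.78), the polyamine acetyltransferase SAT1 (2.77) and MTMR11 (2.76) complete the 12. SAT1 had 96.3 and 84.9 CPM with CC-115, against 15.1, 12 and 12.7 CPM in Control.

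The largest fall was that of BCAT1, which breaks down branched-chain amino acids, at 0.416 and 0.278 CPM with CC-115 against 4.20, 5.25 and 2.61 CPM in Control (-3.49 ± 0.40). TFRC, the transferrin receptor through which cells take up iron, had 66.1 and 40.1 CPM with CC-115, against 437, 403 and 343 CPM in Control, and fell by 2.89 ± 0.23 (adjusted p = 0.000215). GLDC, of glycine breakdown, fell by 2.76, and CHAC2, a relative of CHAC1, by 2.85. DDC, TIGAR and CLSPN were also among the 12 largest falls, as were SLC26A3 (-2.69), MFSD2A (-2.67), AKAP5 (-2.59), SCGN (-2.59) and PRKAR2B (-2.58). The groups did not overlap in any of the 24 genes, which the rule that chose them required.

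The effect of CC-115 was then compared with that in C4-2, at the same dose and time, in 1 fit over 11 libraries. The fold changes of single genes given for 22Rv1 below are those of its own fit, as above. The lines do not share control libraries, and line and library batch cannot be told apart. The effect followed transcript GC content in 22Rv1 (Spearman's rho across genes 0.54) and hardly in C4-2 (0.08), so the differences between the lines carry that relation. The difference between the effects was called for 6301 of 22922 genes (27.5%), more positive in 22Rv1 for 3479 (15.2%) and more negative for 2822 (12.3%). That balance turned with the scaling: 3083 and 3119 were called with median-of-ratios size factors and 3294 and 3405 by DESeq2. Without CC-115 library 1 of 22Rv1 the more negative ones numbered 4309, and with the depth class as a term 4408, against 4724 more positive. With GC-corrected offsets, 3834 were more positive and 3566 more negative. The values of lists and genes below, for the difference and for each line, are without that correction. In this fit, 5398 genes rose (23.5%) and 5435 fell (23.7%) in 22Rv1, and 5910 rose (25.8%) and 6089 fell (26.6%) in C4-2. The rises called in both numbered 3016, which is 55.9% of those of 22Rv1 and 51.0% of those of C4-2, and the falls 3363, 61.9% and 55.2%. Another 448 rises and 432 falls of 22Rv1 were called in the opposite direction in C4-2.

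Replication genes fell less in 22Rv1 than in C4-2. The median over the list in this fit was -1.17 in 22Rv1, against -2.16 in C4-2, and the difference was called for 35 of 44 members, all more positive in 22Rv1. The log2 fold change of E2F1 was -0.94 in 22Rv1 and -3.64 in C4-2 (difference 2.72, adjusted p = 4.85e-08), and that of H1-5 -1.27 in 22Rv1 and -4.03 in C4-2 (difference 2.78, adjusted p = 1.4e-08). CDT1 differed in direction: it rose in 22Rv1, while it fell by 0.85 in C4-2 (difference 2.41 ± 0.16, adjusted p = 2.86e-07). Of 13 histone genes, 12 differences were more positive in 22Rv1 and 1 more negative, and of 30 mitotic genes 11 and 4. MKI67 was one of those more negative in 22Rv1, falling by 1.53 there and by 0.62 in C4-2 (adjusted p = 0.00472). Glycolysis and hypoxia genes, with 15 differences more positive and 2 more negative, and ribosomal protein genes, with 17 and 2, also had medians higher in 22Rv1 (-0.13 and 0.38) than in C4-2 (-0.86 and -0.02).

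Genes of the unfolded protein response and heat shock went the other way. Their median was -1.10 in 22Rv1, against -0.28 in C4-2, and 12 of 19 differences were more negative in 22Rv1 and 1 more positive. HSPA5 fell by 2.18 in 22Rv1 and rose by 0.65 in C4-2 (difference -2.82, adjusted p = 1.88e-06), and HSP90B1 and PDIA4 likewise fell in 22Rv1 and rose by 0.93 and 0.70 in C4-2. In the ATF4 list 15 of 28 differences were more negative in 22Rv1 and 4 more positive, although ATF4 itself rose in both lines by 1.74 and 1.97, with no difference called (-0.22, adjusted p = 0.166). Synthetase genes had 10 of 20 and sterol genes 10 of 25 differences more negative in 22Rv1, with 2 and 3 more positive.

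PRKDC fell in both lines, and more in 22Rv1, with log2 fold changes of -1.34 in 22Rv1 and -0.58 in C4-2 (difference -0.75 ± 0.10, adjusted p = 0.000177).

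Androgen response genes separated the lines as well. In C4-2, 18 of 28 rose and 4 fell, with a median of 0.69, while the median in 22Rv1 was -0.16, and 17 differences were more negative in 22Rv1 and 3 more positive. KLK3 was not called in 22Rv1 and rose by 1.15 in C4-2 (difference -0.85, adjusted p = 2.79e-05). KLK2 rose in both, by 1.73 and 2.26. BMF rose in 22Rv1 and was not called in C4-2, at -0.29 (difference 3.17, adjusted p = 1.15e-07), and CCN2 rose in 22Rv1 with -2.29 in C4-2, which was not called there (difference 5.0, adjusted p = 0.00134). IRS2 rose in both lines and less in 22Rv1, by 1.24 against 3.39 (adjusted p = 2.07e-05).

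**Figure D4:**
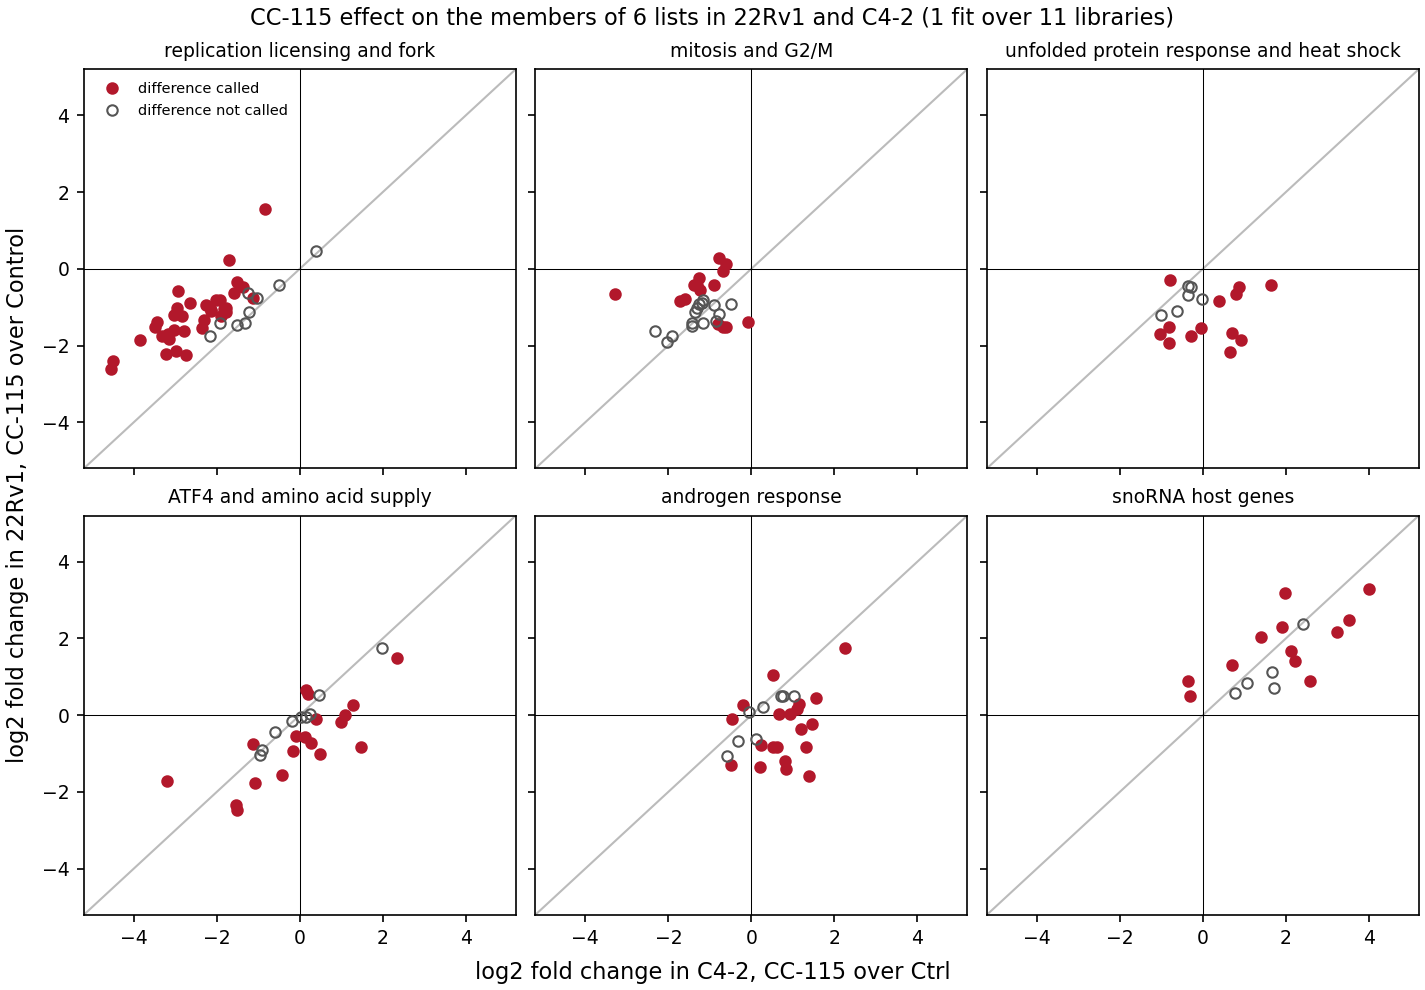
Log2 fold change of each member of 6 lists with CC-115 in C4-2 (x axis) and in 22Rv1 (y axis), from 1 fit; filled red points have a called difference and the grey line marks equal effects. Replication genes lie mostly above the line, with CDT1 alone in the upper left well above 0. Genes of the unfolded protein response and heat shock and androgen response genes lie mostly below it.

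The relation with GC content can be read in 5 classes of 2809 genes each. Of the genes with the lowest GC content (30.2% to 41.0%), 2.63% rose and 41.8% fell, and of those with the highest (58.7% to 76.0%), 43.4% rose and 5.84% fell. Their median log2 fold changes were -0.66 and 0.49, and -0.04 and -0.01 after the GC correction. The correction takes out each library's trend on GC content, so class medians near 0 follow from it. Any part of the response to CC-115 that follows GC content is taken out with it. Of the 7925 calls, 6449 (81.4%) were called in the same direction after it. The lists led with above are not at the extremes of GC content. The median transcript GC was 48.0% in the replication list, 46.0% in the unfolded protein response and heat shock list and 47.1% in the snoRNA host genes. Their medians after the correction were -1.10, -1.08 and 1.60, against -1.19, -1.12 and 1.41 before it. The recombination list, at 41.9%, moved to -0.74 from -1.16. The median changed sign after the correction in the TOR regulators (0.04), the translation factors (0.15) and the interferon response (-0.07). It moved by over 1.5 times in glycolysis and hypoxia (-0.31), Wnt signalling (-0.36), neuroendocrine genes (-0.42), fatty acid synthesis (-0.28), MAPK feedback (0.27), epithelial and mesenchymal genes (0.30), end joining (-0.03), the BCL2 family (0.01) and the prostate epithelial markers (0.04).

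A fit with the depth class of the libraries as a term, chosen after seeing the data, called 11729 genes. It also raised these counts, beside those given above, by over 1.5 times. The risers were then 12 of the TOR regulators, 8 of the cholesterol export genes, 8 of the prostate epithelial markers and 5 of ribosome biogenesis and MYC. They were also 4 of the tRNA synthetases, 3 of fatty acid synthesis and 1 of oxidative phosphorylation. The fallers were 13 of the TOR regulators, 13 of the p53 targets, 7 of the androgen-repressed genes, 6 of lysosome and autophagy, 5 of the epithelial and mesenchymal genes, 4 of MAPK feedback, 3 of cholesterol export and 3 of the ribosomal protein genes.

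**Figure D5:**
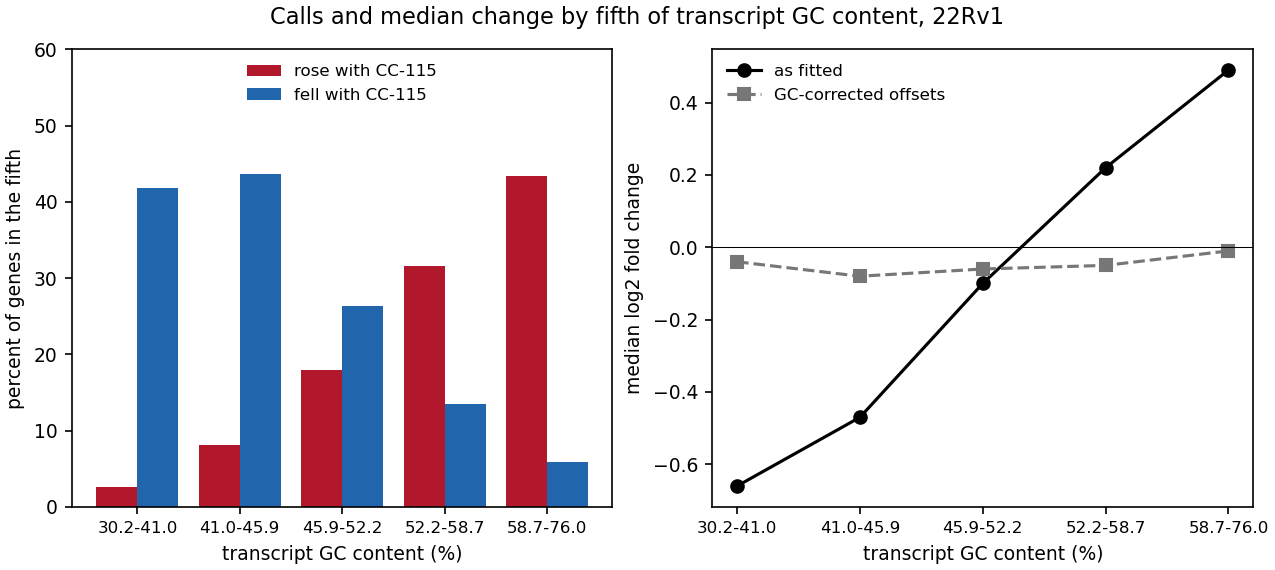
Left, percent of genes that rose (red) or fell (blue) with CC-115 in each of 5 classes of transcript GC content (x axis, percent). Right, the median log2 fold change of each class as fitted (circles) and with GC-corrected offsets (squares). It climbs to 0.49 from -0.66 as fitted. After the correction it stays between -0.08 and -0.01, which follows from taking out each library's trend on GC content.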

How the data were processed

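Raw counts per gene were deposited by the authors as 1 table for 22Rv1 and 1 for C4-2. The submitters' processing notes name the build hg19 and the tools STAR 2.5.2a (an aligner), featureCounts 1.5.0-p3 (a read counter) and DESeq2 1.14.1. Strand setting and annotation release: not given in the sources used here. Each 22Rv1 library held between 31606952 and 44912917 counts over 63677 features, of which 40044 had a symbol in the reference tables. Chi-square per degree of freedom between libraries of a group was at least 16.8, so no pair agreed within counting noise; this does not show that they came from separate cultures.

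The 22Rv1 libraries were fitted alone with edgeR 4.0.16 (R 4.3.3, limma 3.58.1): filterByExpr, TMM scaling, a robust quasi-likelihood F-test, and Benjamini-Hochberg adjustment over 19392 genes, with a call at an adjusted p under 0.05. The script was tested on simulated data. The standard error is the log2 fold change over the root of F. The difference between lines was a contrast in 1 fit over 11 libraries. Alternatives were DESeq2 1.42.0, median-of-ratios size factors, other filters, leaving out each library, a replicate block and, chosen after seeing the data, a depth class as a term and GC-corrected offsets, in which each library's smoothed trend on the GC content of transcripts was taken out.

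Named genes were the 12 largest rises and 12 largest falls among called protein-coding genes with an average log2 CPM of at least 1 and groups that did not overlap, 4 and 4 for the difference between lines, and, in each list, called members with the largest change and a few anchor genes whatever their values. The 36 lists hold 776 genes, 762 of them with an identifier. The comparison, the members and the lists were chosen with earlier results of these data known. Promoters came from a RefSeq table of GRCh38.p14 with 35116 promoters of 27305 genes; positions of genes are those of the count table (hg19). Figures were drawn with Python 3.11.15, pandas 2.3.3, numpy 2.4.6 and matplotlib 3.10.9. Some list members are not reported here.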

Additional observations from a re-analysis of the deposited data

Results flagged for a closer look

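The effect of CC-115 differed between the lines, by a test of the difference in edgeR, for 6301 genes and for the genes below; values are CPM on the scale of the fit over both lines, and each difference is 22Rv1 minus C4-2. Fitted differences of genes with no count in a group depend on the fit's prior count and are no bounds.

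H2AJ, a histone variant, had 0.622 and 0 CPM with CC-115 and 0 CPM in every Control library of 22Rv1, and in C4-2 59.5, 55.2 and 59.6 CPM with CC-115 and 149, 141 and 132 CPM in Ctrl, a difference of 8.06. RPL10L (6.66) had 0.339 and 0 CPM with CC-115 in 22Rv1 and TMPRSS13 (5.32) 0.113 and 0.041 CPM, with no count in Control. The calls of these 3 genes were lost without CC-115 library 1. TINAGL1 (5.27), a matrix protein, had 69.8 and 81.9 CPM with CC-115 and 28.6, 28.3 and 34.5 CPM in Control of 22Rv1, but under 0.5 CPM in every C4-2 library.

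H1-3 (-5.07), NEGR1 (-4.91), ZNF619 (-4.64) and RIBC2 (-4.08) were expressed in 22Rv1 and near 0 in the Ctrl libraries of C4-2. H1-3, a linker histone, had 6.61 and 4.92 CPM with CC-115 and 8.88, 10.5 and 7.77 CPM in Control of 22Rv1, and 0.0484, 0.0664 and 0.0871 CPM with CC-115 and 0 in Ctrl of C4-2. The call of RIBC2 was lost in 4 of the fits that left out a C4-2 library.

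CDT1 differed by 2.41: it had 452 and 554 CPM with CC-115 and 152, 165 and 192 CPM in Control of 22Rv1, and 21.5, 23.5 and 24.4 CPM with CC-115 and 38.2, 43.8 and 42.8 CPM in Ctrl of C4-2. KLK3 differed by -0.85, with 54.3 and 56.5 CPM with CC-115 and 45.0, 46.5 and 43.2 CPM in Control of 22Rv1, and 3610, 3540 and 3640 CPM with CC-115 and 1700, 1620 and 1550 CPM in Ctrl of C4-2. PRKDC differed by -0.75. MTOR differed by -0.34, a call lost in 8 of the fits that left out a library and with a replicate block.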

How the results depend on the processing

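The number of genes called in 22Rv1 (7925) lay between 4902 and 8538 when 1 library was left out, with 5035 without CC-115 library 2, 4902 without Control library 1 and 5129 without Control library 2; the number for the difference between lines (6301) lay between 4891 and 8388. Other alternatives gave 7576 to 11729 calls in 22Rv1 and 5140 to 9132 for the difference, of which 11729 and 9132 came from the depth class as a term, and 46.6% to 52.0% of the 22Rv1 calls were rises over every alternative. Of the calls for the difference, 55.2% were more positive in 22Rv1, and 48.6% to 57.4% over the alternatives. With GC-corrected offsets, 5 named genes that were not called changed sign: ATM to 0.30, RICTOR to 0.34, HOXB13 to -0.08, TFEB to -0.31 and RPS6 to 0.31. Of 235 named genes called in 22Rv1, none changed sign under any alternative. Without CC-115 library 2, Control library 1 and Control library 2, 37, 26 and 24 of them lost their call. These genes were mostly named for a large change, so a change of sign was unlikely. Some other called list members did change sign with GC-corrected offsets and lost their call. Of those that had fallen, OCLN moved to 0.07 and XBP1 to 0.08. Of those that had risen, MLST8 moved to -0.08, RPLP2 to -0.09 and RPL8 to -0.06. The cause was not tested.

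The libraries of CC-115 and Control share the replicate numbers 1 and 2 in the labels. With these as a replicate block, 8390 genes were called in 22Rv1 and 6987 for the difference. The labels do not say that a number marks a shared culture or day, so the numbers were not taken to pair the libraries. Deviations from the group means correlated at 0.62 for number 1 and -0.67 for number 2. The deviations of the 2 CC-115 libraries are equal and opposite by construction, so these values cannot decide on pairing.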

Other observations

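Noncoding genes that were called mostly rose. Of 925 lincRNA genes tested, 204 rose (22.1%) and 50 fell (5.41%), and of 1530 antisense genes 257 rose (16.8%) and 56 fell (3.66%), whose reads cannot be told apart from those of their partner genes without the strand setting. Of 293 transcribed unprocessed pseudogenes, 136 rose (46.4%) and 19 fell (6.48%). Protein-coding genes had 2917 rises (20.8%) and 3682 falls (26.2%) among 14045.

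Protein-coding genes also differed by the length of their span. Of 2810 genes under 10 kb, 776 rose (27.6%) and 562 fell, and of 4536 genes of 30 to 100 kb, 789 rose (17.4%) and 1404 fell (31.0%). Among 581 genes over 300 kb, 11.7% rose and 17.7% fell.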
